A study of Mus musculus with 4 samples.

Results

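10 genes of the interleukin-1 (IL-1) and inflammasome system were followed in tumor-induced myeloid-derived suppressor cells. They were chosen by name: the cytokines Il1a, Il1b and Il18, the receptor antagonist Il1rn, the decoy receptor Il1r2, the sensor Nlrp3, the adaptor Pycard, the caspases Casp1 and Casp4, and the pore former Gsdmd. All 10 were found among the 55416 gene IDs of the count table, and all 10 were among the 16566 genes with enough counts to be tested. Myeloid-derived suppressor cells (MDSCs) are immature myeloid cells, resembling neutrophils or monocytes, that expand during tumor growth and suppress T cell responses. They had been flow-sorted from the ascites that formed 14 days after mice received EL4, a mouse T cell lymphoma line. The groups were wild-type (WT) mice and mice lacking Sphk2 (Sphk2 KO), the gene for sphingosine kinase 2, with 2 poly(A) RNA-seq libraries of each. All mice of both groups carried the tumor, so tumor-free cells are not part of the comparison, which asks which transcriptional programs, inflammatory ones among them, depend on sphingosine kinase 2.

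The labels do not give the strain, age, the kind of Sphk2 allele, the surface markers of the sort, or whether each library came from its own mouse. The p-values below therefore measure only the spread between these libraries, which may be technical. Counts per library ranged from 14087613 to 24685576, and levels are given as CPM, a gene's counts relative to a library total scaled by the trimmed mean of M-values (TMM). Sphk2 itself stood at 54.9 and 53.7 CPM in WT replicates 1 and 2 and at 4.07 and 4.45 CPM in Sphk2 KO replicates 1 and 2. Its log2 fold change was -3.67 (SE 0.186, edgeR quasi-likelihood adjusted p = 0.000127), the direction the labels give. Neutrophil markers were the most abundant of the 9 cell type lists looked up, at a summed 17047 to 35549 CPM, and monocyte and macrophage markers summed to 1098 to 2507 CPM. The 8 T cell markers, which would also mark EL4 cells, summed to 15.1 to 38.5 CPM, while the 7 B cell markers summed to 562 to 1250 CPM. None of the markers in the 9 lists was at 0 in all libraries.

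IL-1β and IL-18 are made as inactive precursors without the usual secretion signal. In the textbook scheme a first stimulus induces Il1b and Nlrp3 through NF-kB. A second one then makes NLRP3 assemble with the adaptor ASC (encoded by Pycard) and caspase-1, which cleaves the cytokines and gasdermin D, whose fragment forms pores in the plasma membrane. Caspase-11, encoded by Casp4 in the mouse, senses cytosolic lipopolysaccharide and cleaves gasdermin D as well. Neutrophils and MDSCs are known sources of IL-1β, and because most of these steps are post-translational, transcript levels do not measure inflammasome activity.

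To show the DNA upstream of the genes, promoter windows of 250 bases before to 50 after the start site were taken from RefSeq (GRCm38.p6), in which 9 of the 10 genes had a window and Gsdmd had none. The windows printed are those of Casp1 and Casp4, the neighbours with the highest estimates, and of Il1b, the most abundant member. They lie at chr9:5298267-5298566 on the plus strand for Casp1, chr9:5308599-5308898 on the plus strand for Casp4 (the first of its windows), and chr2:129371090-129371389 on the minus strand for Il1b. Each is written 5′ to 3′ along the gene, with motif matches in capitals.
Casp1: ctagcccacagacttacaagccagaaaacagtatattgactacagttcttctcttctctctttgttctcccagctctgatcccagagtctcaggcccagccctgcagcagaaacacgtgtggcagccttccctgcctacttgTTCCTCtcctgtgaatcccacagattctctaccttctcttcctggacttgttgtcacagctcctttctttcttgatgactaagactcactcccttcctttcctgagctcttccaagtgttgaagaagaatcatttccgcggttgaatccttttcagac
Casp4: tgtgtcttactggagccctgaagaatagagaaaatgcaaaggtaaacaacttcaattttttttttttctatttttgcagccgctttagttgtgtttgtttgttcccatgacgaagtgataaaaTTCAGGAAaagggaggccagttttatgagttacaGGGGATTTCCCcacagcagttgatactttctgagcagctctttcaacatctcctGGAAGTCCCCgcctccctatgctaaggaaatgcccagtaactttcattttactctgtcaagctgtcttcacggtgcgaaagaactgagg
Il1b: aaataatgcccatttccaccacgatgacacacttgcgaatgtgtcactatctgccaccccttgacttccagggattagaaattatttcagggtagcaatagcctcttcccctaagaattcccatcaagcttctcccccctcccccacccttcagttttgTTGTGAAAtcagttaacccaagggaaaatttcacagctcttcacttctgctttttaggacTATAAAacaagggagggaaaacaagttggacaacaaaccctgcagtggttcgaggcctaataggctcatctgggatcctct

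The motifs were searched on both strands: NF-kB by its consensus, AP-1 as TGANTCA, C/EBP as TTNCNNAA, PU.1 as GAGGAA and the TATA box as TATAAA. In Casp1 the capitals mark a PU.1 match on the opposite strand that begins at -108 from the start site. In Casp4 they mark a C/EBP match at -127 and an NF-kB match at -39, both on the opposite strand. They also mark an NF-kB stretch at -93 that holds 2 overlapping matches. In Il1b they mark a C/EBP match on the opposite strand at -91 and a TATA box at -31. Over the 9 members with a window, NF-kB matches were found in 2 (Nlrp3 and Casp4), AP-1 in 2, C/EBP in 6, PU.1 in 4 and TATA in 4. A member counted if any of its windows matched, and Il1rn had 3 windows and Nlrp3 and Casp4 had 2 each. The TATA strings of Il18 and Il1rn began at -175 and 15 from the start site. Of all 32851 windows of the same length, 8.5% held an NF-kB match, 7.8% an AP-1, 40.7% a C/EBP, 28.3% a PU.1 and 13.6% a TATA match. These shares are per window and the member counts per gene, so the 2 are not directly comparable. A match is a string of letters and not a measured binding site.

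Il1b was among the most abundant transcripts of these cells in both genotypes. It held rank 9 and 7 among all genes in WT replicates 1 and 2 and rank 10 and 8 in Sphk2 KO replicates 1 and 2, with 0.448%, 0.585%, 0.449% and 0.524% of all counts in that order. Per kilobase of exon, the mean level over the 4 libraries was 2656 CPM for Il1b, 624 for Il1r2, 170.0 for Nlrp3, 49.2 for Gsdmd, 36.1 for Casp4, 27.8 for Casp1, 22.7 for Il1rn, 10.8 for Pycard, 3.88 for Il18 and 0.679 for Il1a. Neighbours in this order were separate in every library except within the run of Gsdmd, Casp4, Casp1 and Il1rn, where each gene's libraries overlapped the next gene's. With the longest coding transcript as length, a choice added after seeing the data, that run read Casp4 at 93.3, Gsdmd at 65.3, Il1rn at 50.9 and Casp1 at 27.8 CPM per kilobase, and the other genes kept their places. The precursor, the decoy receptor and the sensor were thus far above the adaptor and caspase-1 transcripts, and the other cytokines of the set were near the bottom.

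**Figure D1:**
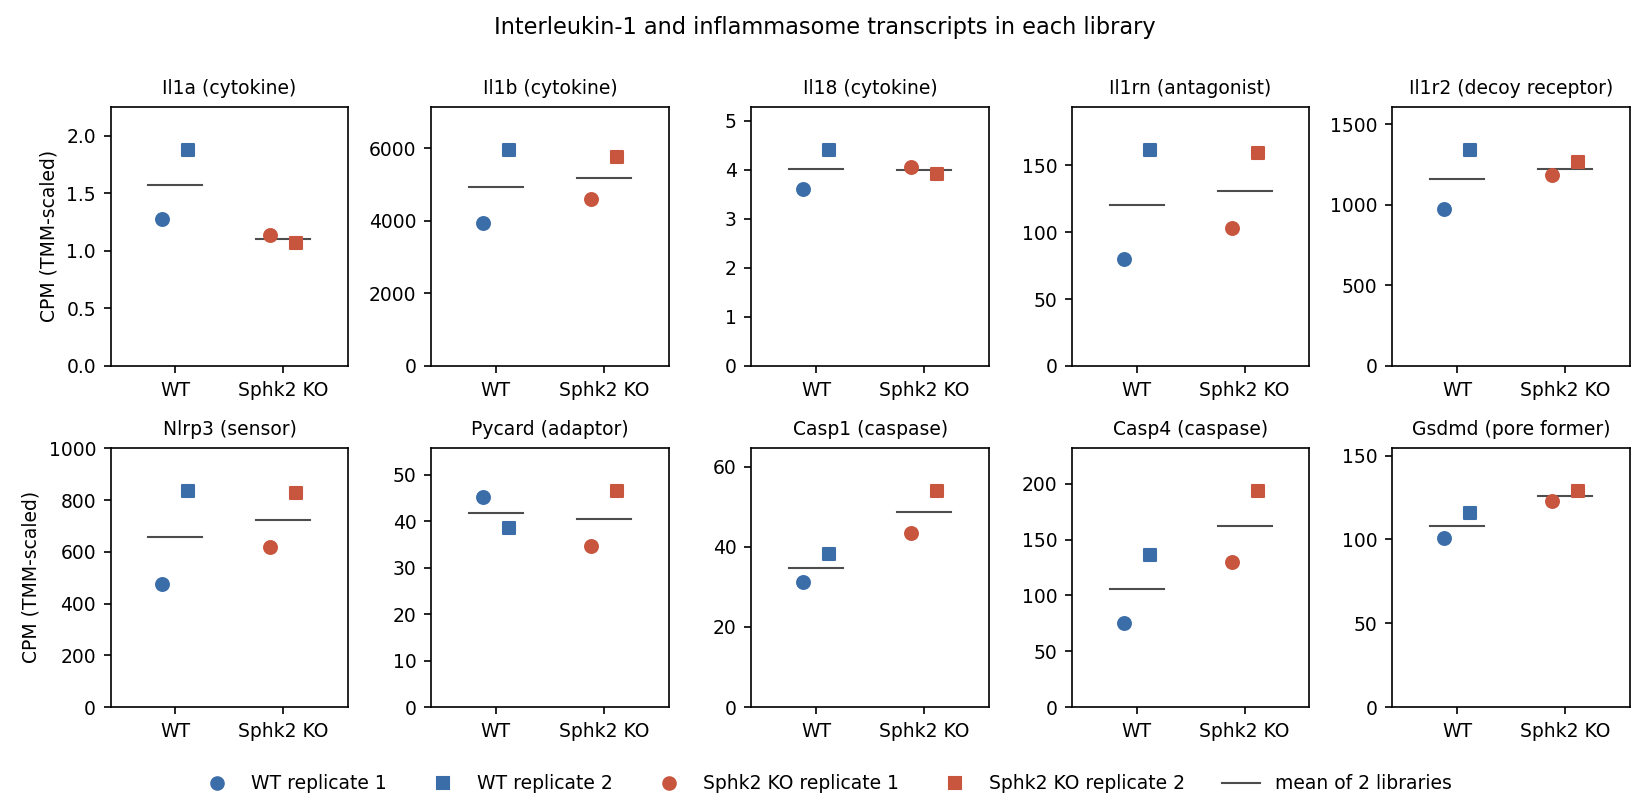
Level of each of the 10 genes (vertical axes, TMM-scaled CPM, each from 0) in the 2 WT libraries (blue) and 2 Sphk2 KO libraries (red), with circles for replicate 1, squares for replicate 2 and lines for the mean of 2 libraries. The Il1b points run from 3935 to 5959 CPM with the genotypes overlapping, whereas both Sphk2 KO points of Casp1 and Gsdmd lie above both WT points and both of Il1a lie below.

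None of the 10 genes was called different between the genotypes (edgeR, Benjamini-Hochberg adjusted p under 0.05 over all tested genes), against 0.109% of all tested genes. DESeq2 called none of the 10 either, against 0.476% of genes, nor did limma-voom, against 0.115%. With replicate number added to the edgeR fit, 2 were called, Casp1 and Casp4, against 15.9% of genes. The labels do not tie that number to a batch. In the main analysis 1 member, Casp1, had an unadjusted p under 0.05, a threshold that 10.5% of all tested genes passed. With a higher level in Sphk2 KO, the direction of Casp1, 3.06% of all tested genes passed it. Both Sphk2 KO libraries stood above both WT libraries for 2 members, Casp1 and Gsdmd, where 20.4% of all genes did so. They stood below for 1 member, Il1a, where 22.7% of all genes did so. The members' counts in the main analysis were thus near or below those shares, apart from the 3.06%, which any 1 gene of 10 would exceed. The median log2 fold change (Sphk2 KO over WT) was 0.10 over the members and -0.00 over all tested genes, and the members' median became -0.15 when WT replicate 1 was left out and -0.02 when Sphk2 KO replicate 2 was.

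Il1b, the main secreted IL-1 of myeloid cells, was at 3935 and 5959 CPM in WT replicates 1 and 2 and at 4605 and 5758 CPM in Sphk2 KO replicates 1 and 2. Both genotypes had a lower replicate 1 and a higher replicate 2, and the WT libraries enclosed the Sphk2 KO ones. The means were 4947 ± 1432 (SD, n = 2) and 5182 ± 815 CPM (SD, n = 2), a log2 fold change of 0.07 (SE 0.404, adjusted p = 0.963 by edgeR). The 95% interval ran from 0.551-fold to 1.99-fold, so these libraries do not exclude a change within these bounds. Its antisense neighbour Il1bos shares 25 of the exon bases of Il1b and was at 28.3 to 46.1 CPM, far below it.

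Il1a, the IL-1 form that also acts as an alarmin from dying cells, was barely present, with 24 and 26 counts in the WT libraries and 16 and 24 in the Sphk2 KO libraries. These were 1.27 and 1.88 CPM in WT and 1.14 and 1.07 CPM in Sphk2 KO replicates 1 and 2. The Sphk2 KO libraries lay just under the lower WT library, by less than the WT libraries differed from each other. The log2 fold change was -0.50 (SE 0.413, 95% interval -1.45 to 0.45, adjusted p = 0.676 by edgeR). Of its exon bases, 11.2% overlap Gm14023 on the opposite strand, which was at 1.12 to 2.10 CPM. The strand setting of the counting is not given in the sources used here, so reads of such antisense pairs cannot be told apart.

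Il18, the caspase-1 substrate that drives interferon-γ production in lymphocytes, was at 3.61 and 4.41 CPM in the WT and 4.07 and 3.91 CPM in the Sphk2 KO replicates 1 and 2. Both Sphk2 KO values lay between the WT values. The log2 fold change was -0.00 (SE 0.3004, adjusted p = 0.998 by edgeR), with a 95% interval from 0.619-fold to 1.61-fold. Among the cytokines of the set, only Il1b was therefore expressed at a high level, and for each of the 3 the interval covered no change.

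Il1rn encodes the secreted antagonist that occupies the IL-1 receptor without signaling. It was at 79.8 and 161 CPM in WT replicates 1 and 2 and at 103 and 159 CPM in Sphk2 KO replicates 1 and 2. The replicates of 1 genotype differed more than the genotypes did, by 2.02-fold within WT and 1.55-fold within Sphk2 KO. The log2 fold change was 0.12 (SE 0.326, 95% interval -0.62 to 0.87, adjusted p = 0.908 by edgeR). Without WT replicate 2, the higher of the WT libraries, it was 0.73 and passed the threshold (adjusted p = 0.0438 by edgeR), and without WT replicate 1 it was -0.31.

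Il1r2, the decoy receptor that binds IL-1 and lacks a signaling domain, was at 975 and 1339.7 CPM in WT and 1183 and 1264 CPM in Sphk2 KO replicates 1 and 2. The Sphk2 KO values again lay inside the WT range. The log2 fold change was 0.08 (SE 0.264, 95% interval -0.53 to 0.69, adjusted p = 0.930 by edgeR). In the annotation, 2 predicted gene models lie within its span and share none of its exon bases. Gm37347, on the same strand, was at 2803 to 3872 CPM, above Il1r2 itself, and Gm16894, on the opposite strand, at 699 to 1042 CPM. By contrast Il1r1, the signaling receptor, had 14, 0, 5 and 17 counts in WT replicates 1 and 2 and Sphk2 KO replicates 1 and 2, and its partner chain Il1rap was at 293 to 602 CPM. Both were looked up after their values were seen.

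Within a library, the ratio of 2 members does not depend on the scaling. There were 49.3 and 36.9 Il1b counts per Il1rn count in WT replicates 1 and 2 and 44.8 and 36.1 in Sphk2 KO replicates 1 and 2. Il1b stood at 4.04 and 4.45 counts per Il1r2 count in WT and at 3.89 and 4.56 in Sphk2 KO. In both ratios the genotypes overlapped. The log2 difference between genotypes was -0.08 for Il1b over Il1rn (exact permutation test, two-sided, p = 0.667) and -0.01 for Il1b over Il1r2 (exact permutation p = 1). For Casp4 over Casp1 it was 0.16 (exact permutation p = 0.667), and for Il1a over Il1b -0.58 (exact permutation p = 0.333). The log2 ratio of Il1a over Il1b was -11.59 and -11.63 in WT and -11.98 and -12.40 in Sphk2 KO replicates 1 and 2. It rests on 16 to 26 Il1a counts per library. With 4 libraries the test cannot give less than 0.333, and adjusted over the 4 ratios every p was 0.889 or more.

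Nlrp3, the sensor, was at 476 and 835 CPM in WT replicates 1 and 2 and at 619 and 829 CPM in Sphk2 KO replicates 1 and 2. It had the same order of libraries as Il1b, with both replicates 1 below both replicates 2. The means were 655 ± 254 (SD, n = 2) in WT and 724 ± 148 CPM (SD, n = 2) in Sphk2 KO, a log2 fold change of 0.14 (SE 0.304, adjusted p = 0.874 by edgeR). Its 95% interval was 0.682-fold to 1.79-fold.

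Pycard encodes ASC, which links the sensor to caspase-1. It was at 45.2 and 38.5 CPM in WT and at 34.6 and 46.5 CPM in Sphk2 KO replicates 1 and 2, so the genotypes overlapped and, unlike for Il1b and Nlrp3, the order of the replicates was opposite in them. For Pycard the log2 fold change was -0.04 (SE 0.189, 95% interval -0.48 to 0.39, adjusted p = 0.948 by edgeR). Gm45205 on the opposite strand covers 12.8% of its exon bases and was at 14.6 to 23.1 CPM.

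The 2 inflammatory caspases had the highest estimates of the set. Casp1, which cleaves pro-IL-1β, pro-IL-18 and gasdermin D, was at 31.3 and 38.2 CPM in WT replicates 1 and 2 and at 43.4 and 53.9 CPM in Sphk2 KO replicates 1 and 2. Both Sphk2 KO libraries were above both WT libraries, and the gap between the nearest of them (38.2 against 43.4 CPM) was smaller than the distance within either genotype. The means were 34.7 ± 4.86 (SD, n = 2) and 48.6 ± 7.45 CPM (SD, n = 2), a 1.40-fold difference with a 95% interval of 1.05 to 1.87. The log2 fold change of 0.49 (SE 0.181) missed the threshold once adjusted (unadjusted p = 0.0260, adjusted p = 0.425 by edgeR).

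Casp4, the lipopolysaccharide-sensing caspase, was at 74.9 and 137 CPM in WT and at 130.1 and 194 CPM in Sphk2 KO replicates 1 and 2. The lower Sphk2 KO library lay just under the higher WT library, so the groups overlapped. Its log2 fold change was 0.62 (SE 0.293, 95% interval -0.06 to 1.29, adjusted p = 0.495 by edgeR). It was 1.13 and passed the threshold without WT replicate 2 (adjusted p = 0.00264 by edgeR), and was 0.23 on leaving out WT replicate 1 and 0.31 on leaving out Sphk2 KO replicate 2. Of the fits with 1 library left out, the one without WT replicate 2 was the only one in which Casp4 passed.

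Casp1 and Casp4 are neighbours on chromosome 9, followed by Casp12, another gene of the inflammatory caspase group. Casp12 was at 0.478 and 0.578 CPM in WT and 1.21 and 1.07 CPM in Sphk2 KO replicates 1 and 2, with a log2 fold change of 1.10 (SE 0.453, adjusted p = 0.455 by edgeR). The tested genes on either side, Msantd4 and Dync2h1, had estimates of -0.07 and -0.29. Beyond Dync2h1 came Dcun1d5 (-0.04), Mmp8 (0.98, SE 0.209, adjusted p = 0.266 by edgeR) and Mmp27 (1.09). Mmp8 is also one of the neutrophil markers. Beyond Msantd4 came Kbtbd3 (0.34), Aasdhppt (-0.36), Cwf19l2 (0.27) and Alkbh8 (-0.50). The called gene nearest to Casp1 on the chromosome, Cadm1, was 268 tested genes away. Il18, also on chromosome 9, was 13 tested genes from the called gene Nxpe1-ps. Pycard on chromosome 7 was 227 tested genes from the called gene Gm1966. The chromosomes of the remaining members other than Casp4 held no called gene. Genes named here that are not members are given for their position only. No 75-base sequence of the longest transcripts of the 10 members occurs in a transcript of another gene in the annotation used.

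Gsdmd, the pore former of pyroptosis, was at 101 and 116 CPM in WT and at 123 and 129 CPM in Sphk2 KO replicates 1 and 2. Both Sphk2 KO libraries were above both WT libraries. The means were 108 ± 10.8 (SD, n = 2) and 126 ± 4.28 CPM (SD, n = 2), a log2 fold change of 0.22 (SE 0.151, 95% interval -0.13 to 0.56, adjusted p = 0.625 by edgeR). Its standard error was the smallest of the 10, with bounds of 0.915-fold and 1.48-fold on the linear scale.

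**Figure D2:**
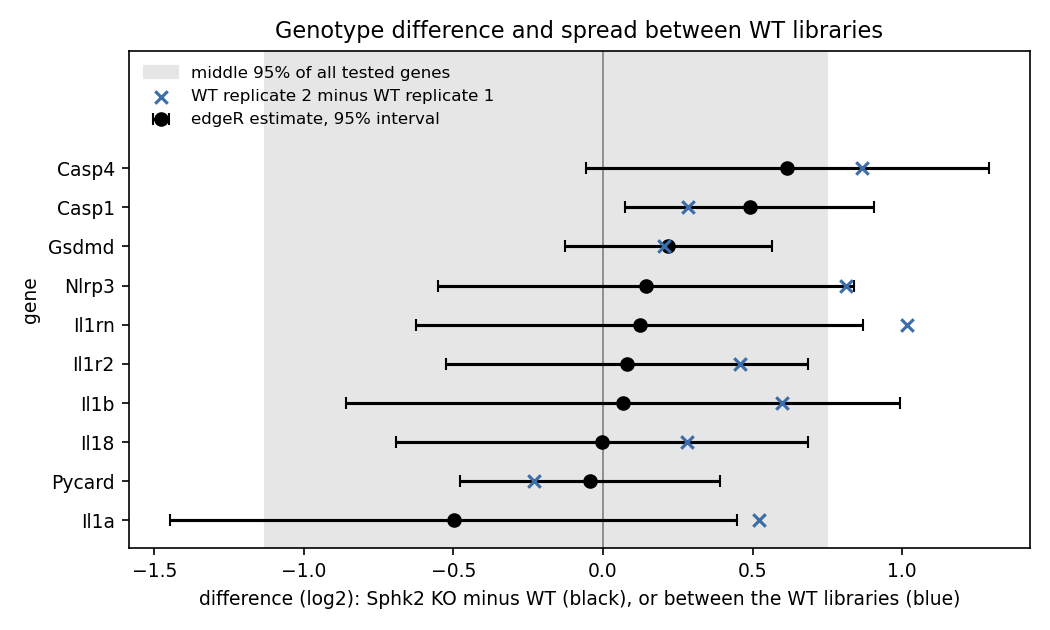
Log2 difference between Sphk2 KO and WT for each gene (horizontal axis, black points with 95% intervals from edgeR), with the difference between the 2 WT libraries (blue crosses) and the middle 95% of all tested genes (grey, -1.13 to 0.75). Every estimate lies in the grey band, the interval of Casp1 alone stays above 0, and for 8 of the 10 genes the WT libraries differed by more than the genotypes.

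The spread within a genotype was wide for this set. The WT libraries differed from each other by more than the genotype estimate in 8 of the 10 genes, with Casp1 and Gsdmd as the exceptions, against 56.0% of all tested genes. Replicate 2 was above replicate 1 in both genotypes for 7 of the 10 members, against 32.9% of all tested genes. The median log2 difference of replicate 2 from replicate 1 was 0.49 in WT and 0.32 in Sphk2 KO over the members, and -0.04 and -0.01 over all tested genes. Of the 99 other tested pathway genes described below, 53.5% had that order in both genotypes.

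Markers of cell types also moved across the libraries. The 9 neutrophil markers, none of them at 0, summed to 17047 and 25010 CPM in WT replicates 1 and 2 and to 27519 and 35549 CPM in Sphk2 KO replicates 1 and 2. That order of libraries was also seen for Casp1, for Gsdmd and for the sum of the erythroid markers below. In 6 of the 9 neutrophil markers, both Sphk2 KO libraries were above both WT libraries, against 20.4% of all tested genes, and none of the 9 was called. The 12 monocyte and macrophage markers, none at 0, summed to 2507 and 1686 CPM in WT and to 1622 and 1098 CPM in Sphk2 KO. In 2 of the 12, both Sphk2 KO libraries were below both WT libraries, against 22.7% of all tested genes. The median log2 fold change of the 12 was -0.13. Fn1 led their sum, at 1172 and 504 CPM in WT and 505 and 157 CPM in Sphk2 KO. Both Sphk2 KO libraries were also below both WT libraries in 6 of the 8 T cell and EL4 markers, against the same 22.7%. Sums of the 8 were 38.5 and 30.6 CPM in WT and 17.6 and 15.1 CPM in Sphk2 KO. The most abundant of them, Cd3d, overlapped, at 5.42 and 8.82 CPM in WT and 5.71 and 9.48 CPM in Sphk2 KO. In 6 of the 7 B cell markers as well, both Sphk2 KO libraries were below both WT libraries, with a median log2 fold change of -0.60. Sums of the 7 were 1250 and 1081 CPM in WT and 1168 and 562 CPM in Sphk2 KO. Ighm led these sums and overlapped, at 745 and 578 CPM in WT and 785 and 318 CPM in Sphk2 KO. Erythroid markers, with 6 genes and none at 0, summed to 59.6 and 183 CPM in WT and to 307 and 530 CPM in Sphk2 KO. In 5 of the 6, both Sphk2 KO libraries were above both WT libraries, against 20.4% of all tested genes. The median log2 fold change of the 6 was 1.56, and none of them was called. The part of these shifts in the values of Casp1, Casp4, Gsdmd and Il1b was not tested. In bulk RNA, fewer cells of a type and less RNA per cell cannot be told apart.

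The genes whose pattern over the 4 libraries was most like that of Il1b were sought among 7854 genes averaging 10 CPM or more, by the root mean square distance of log2 CPM after centring each gene on its mean. The nearest were Dclre1c at 0.0149, AI839979 at 0.0201, Il10rb at 0.0224, Pkd1l3 at 0.0247 and Ccno at 0.0248, where the median candidate was at 0.256. Il1r2 at 0.0942 and Nlrp3 at 0.0956 were the nearest members, and Casp4 at 0.309 was the farthest. With 4 libraries, such closeness describes the libraries and nothing more.

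The other genes of the pathway were taken from 8 lists with 121 genes, of which 120 were in the table and 109 were tested. None of the 109 was called by edgeR, against 0.109% of all tested genes. An unadjusted p under 0.05 was found for 6 with a higher level in Sphk2 KO, against 3.06% of all tested genes, and for 7 with a lower level, against 7.47%. Without the 10 members the counts were 5 and 7 of 99, with a median log2 fold change of 0.05. The smallest adjusted p of the lists was that of Ifi208, a member of the interferon-inducible Ifi200 family, named after its values were seen. It was at 0.796 and 1.08 CPM in WT and 4.92 and 7.30 CPM in Sphk2 KO replicates 1 and 2, with a log2 fold change of 2.72 (SE 0.387, adjusted p = 0.0759 by edgeR), and was the 1 pathway gene that DESeq2 called. Counting 0 by edgeR here depends on the libraries, since 16 of the pathway genes passed once WT replicate 2 was left out, 7 once Sphk2 KO replicate 1 was, and 1 with either of the others left out. The shares of all tested genes called in those fits were 5.93% without WT replicate 2, 3.57% on leaving out Sphk2 KO replicate 1, and 0.319% and 0.338% without the others.

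Among IL-1 family cytokines and soluble inhibitors, 6 of 11 genes were tested, with a median of 0.10. Il1f9, which encodes IL-36γ, had the highest estimate, with 138 and 272 CPM in WT and 248 and 337 CPM in Sphk2 KO (0.52, SE 0.309, adjusted p = 0.575 by edgeR). Il33 had 0 counts in all 4 libraries. All 8 receptors of the family were tested, with a median of 0.22 that was -0.01 without WT replicate 1. The IL-18 receptor chain Il18r1 had the highest estimate among those of at least 5 CPM (0.48, SE 0.198, adjusted p = 0.461 by edgeR), and the IL-33 receptor Il1rl1 the lowest (-0.07). Below 5 CPM, Il1rl2 was at -0.94, Sigirr at -0.76 and Il1r1 at 0.50, all named after their values were seen. Of the 16 genes of receptor-proximal signaling, with a median of 0.07, the adaptor Myd88 was the most abundant, at 197 to 330 CPM (0.27), the ubiquitin ligase Peli1 the highest (0.39) and the kinase Ikbkb the lowest (-0.22). In none of these 3 lists did a gene pass the test.

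Of the 25 inflammasome sensors and regulators 22 were tested, with a median of -0.00. The most abundant was Txnip, a thioredoxin-binding protein, at 906 to 1459 CPM (0.19). Gbp2, an interferon-inducible GTPase, had the highest estimate of those above 5 CPM, at 63.2 and 137 CPM in WT and 167 and 202 CPM in Sphk2 KO (0.89, SE 0.316, adjusted p = 0.425 by edgeR). P2rx7, the ATP-gated channel that triggers NLRP3, had the lowest, at 15.4 and 8.89 CPM in WT and 8.92 and 4.67 CPM in Sphk2 KO (-0.86, SE 0.376, adjusted p = 0.472 by edgeR). Of the 14 adaptors, caspases and pyroptosis executors 12 were tested, with a median of 0.17. Gsdme, the gasdermin cut by caspase-3, was the most abundant of them at 105 to 201 CPM (0.40), and Casp8 the lowest (-0.06).

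The 5 granule proteases, which include enzymes that can cut IL-1 precursors outside the cell, had a median of -1.05, which became -0.05 once WT replicate 1 was left out, -0.50 once Sphk2 KO replicate 2 was, and -1.69 or lower with either of the others left out. Elane, neutrophil elastase, was at 49.6 and 13.01 CPM in WT and 18.9 and 6.63 CPM in Sphk2 KO (-1.32, SE 0.620, adjusted p = 0.489 by edgeR), with overlapping groups. The metalloproteinase Mmp9 was the most abundant, at 1532 to 2421 CPM (0.33). Elane is also one of the 10 immature neutrophil markers, none at 0, which summed to 6521 and 4208 CPM in WT and to 7973 and 4965 CPM in Sphk2 KO. That sum was led by Ngp, while the median log2 fold change of the 10 was -0.18. In 1 of them both Sphk2 KO libraries were above both WT libraries, against 20.4% of all tested genes. The part of cell maturity in these values was not tested. In all but Mmp9, the estimate was negative.

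Of the 26 NF-kB units and response genes 24 were tested, with a median of -0.09. Tnfaip3, which encodes the NF-kB inhibitor A20, had the lowest estimate (-0.63, SE 0.159, adjusted p = 0.373 by edgeR). It was at 243 and 254 CPM in WT and 154 and 168 CPM in Sphk2 KO, so that the groups were separate. Both Sphk2 KO libraries were below both WT libraries in 6 of the 24 genes, against 22.7% of all tested genes. Zfp36, which speeds the decay of cytokine mRNAs, was the most abundant at 1488 to 2191 CPM (0.20), and Lcn2, an iron-siderophore binding protein, the highest (0.41). The 17 immediate early genes, which respond quickly to handling as well as to cytokines, had a median of 0.19, with the phosphatase Dusp1 the most abundant (2750.0 to 3704 CPM, -0.07), Egr2 the highest (0.39) and Fosb the lowest (-0.21). None of the genes of these lists passed the test.

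**Figure D3:**
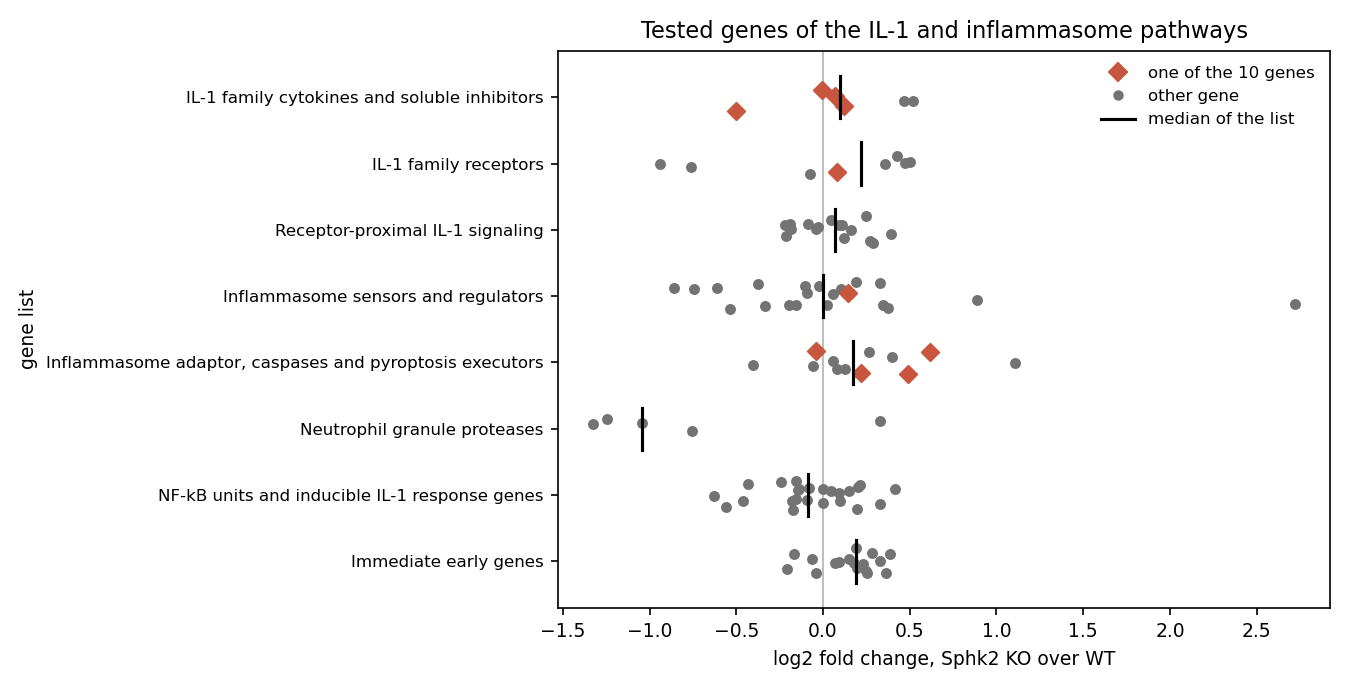
Log2 fold change, Sphk2 KO over WT (horizontal axis), of each tested gene in the 8 pathway lists, with the 10 genes described here as red diamonds, other genes as grey points and the list median as a black line. Most genes lie near 0, the granule proteases have a median of -1.05 that was -0.05 without WT replicate 1, and the far right point is Ifi208 at 2.72.

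The estimates of the members were set against the settings drawn in the plot of values by setting. Casp1, Casp4 and Gsdmd stayed positive and Il1a negative in every setting that tested them, with Casp1 between 0.32 and 0.66 and Casp4 between 0.23 and 1.13. The estimates of Il1b, Il1rn and Nlrp3 turned negative when WT replicate 1 or Sphk2 KO replicate 2 was left out and when libraries were scaled by size alone. Il1r2 did so when WT replicate 1 was left out and under that scaling. Library size alone lowered the median of all tested genes to -0.17, and Il1b at -0.09 and Il1r2 at -0.08 stayed above that median.

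**Figure D4:**
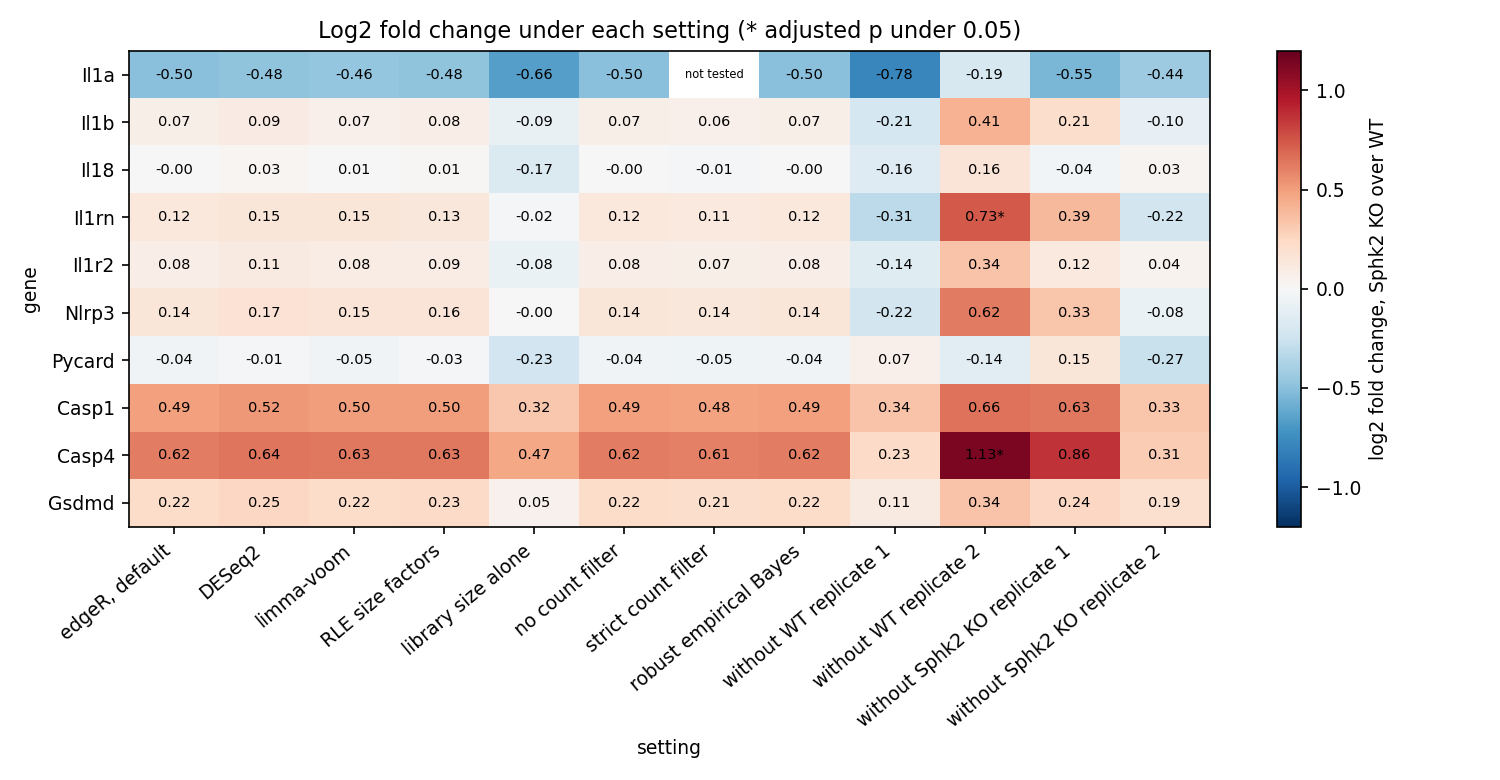
Log2 fold change, Sphk2 KO over WT (colour and printed value), of the 10 genes (rows) in the main analysis and 11 other settings (columns), with an asterisk for an adjusted p under 0.05; the fit with a replicate block is not drawn, and its values stand with the effects of the processing. Among the settings drawn, the asterisks are those of Il1rn and Casp4 without WT replicate 2, and the colour of Il1b, Il1rn, Il1r2 and Nlrp3 turns blue without WT replicate 1.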

How the data were processed

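The deposited table holds raw counts per gene and library. Trim Galore, STAR, featureCounts, DESeq2 and the build GRCm39 are named in the submitters' processing notes. The sources used here give no versions, annotation release, strand setting or treatment of multi-mapping reads. Per the labels' protocols, the input was total RNA (250 ng, RINe 9.7 to 10), from which poly(A) RNA was selected for directional paired-end libraries.

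Counts of all 4 libraries were fitted with edgeR 4.0.16 in R 4.3.3 (filterByExpr, TMM, glmQLFit, then glmQLFTest on genotype, the single term) and p adjusted over all 16566 tested genes. A standard error is the log2 fold change over the square root of F. The scripts were tested on simulated data. Alternatives were DESeq2 1.42.0, limma-voom (limma 3.58.1), RLE factors, library size alone, no filter, robust empirical Bayes, a stricter filter (100 counts overall and 1 CPM in 2 libraries), a replicate block, and each library left out. Lengths, overlaps and gene order came through gene IDs from GENCODE M21 (GRCm38), a different build from that of the counts. Symbols were found for 52015 of 55416 IDs, and 0 rows named no gene.

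Members and lists were chosen with earlier results of these data known. Named pathway genes were, for each list, the most abundant and, at 5 CPM or more, the highest and lowest estimates; others are stated as chosen after their values were seen. Il36rn had no match in the table.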

Additional observations from a re-analysis of the deposited data

How the results depend on the processing

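With 2 libraries a genotype, the median standard error over tested genes was 0.28 on the log2 scale, which limits what could be detected. The 18 genes called became 76 with DESeq2, 615 without a count filter and 54 to 1061 when each library was left out. The members called stayed at 0 in 10 of 12 settings and ranged from 0 to 2 with a library left out. Pathway genes called went from 0 to 1 with DESeq2, 6 without a count filter and 1 to 16 with a library left out. The lone library of a genotype is then assumed to vary like the other genotype. With DESeq2 108 pathway genes were tested, and 0.476% of all tested genes were called. Without a count filter 109 pathway genes were tested, and 2.07% of all tested genes were called.

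Il18 turned positive with DESeq2 (0.0256), limma-voom (0.00645) and RLE size factors (0.0117). With library size alone, Il1b was at -0.0876, Il1rn at -0.0227, Il1r2 at -0.0756 and Nlrp3 at -0.0047. With a library left out, the estimates ranged from -0.21 to 0.41 for Il1b, -0.31 to 0.73 for Il1rn, -0.14 to 0.34 for Il1r2, -0.22 to 0.62 for Nlrp3, -0.27 to 0.15 for Pycard and -0.16 to 0.16 for Il18. The log2 ratios then ranged from -0.29 to 0.12 for Il1b over Il1rn, -0.12 to 0.10 for Il1b over Il1r2 and -0.13 to 0.45 for Casp4 over Casp1. That of Il1a over Il1b ranged from -0.79 to -0.37. The cause of these moves was not tested. The median of the members ranged from -0.15 to 0.38 over the settings. With a library left out, list medians ranged from -0.19 to 0.52 for cytokines and inhibitors, -0.01 to 0.34 for receptors, -0.01 to 0.18 for proximal signaling, -0.14 to 0.13 for sensors, 0.17 to 0.30 for adaptors, caspases and executors, -1.74 to -0.05 for granule proteases, -0.24 to 0.27 for NF-kB genes and -0.08 to 0.47 for immediate early genes. Il1a was not tested under the stricter filter.

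A replicate block used the number that libraries of both genotypes share, which the labels do not tie to a batch. The differences between replicates 2 and 1 correlated at 0.438 across genes between the genotypes, with genes not being independent. With the replicate block 2637 genes were called (15.9% of those tested), among them 2 members, Casp1 (0.49, adjusted p = 0.00178 by edgeR) and Casp4 (0.65, adjusted p = 4.07e-05 by edgeR), and 25 pathway genes. No other member was called with the block.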
